A study of Homo sapiens with 6 samples.

Results

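AJUBA, FRMD6 and MPP5 encode proteins that act upstream of the kinases LATS1 and LATS2 at cell junctions and at the apical membrane. They were taken by gene symbol from a deposited table of 414 genes, and each of the 3 has a row of its own. KLE, an endometrial carcinoma line long kept in culture, was of WT genotype in the parental group and was compared with KLE cells that are double knockout for LATS1 and LATS2 (LATS1/2-KO), made with CRISPR/Cas9, and no other treatment is given for either group. RNA of 3 parental and 3 LATS1/2-KO libraries was sequenced. By the study's methods the knockout lines were grown from single cells, and whether the 3 LATS1/2-KO libraries come from 1 clone or several is not stated in the sources used here. Nothing in the labels says that the libraries of a group come from separate cultures, so p-values measure the spread between these libraries, which may be technical. Read counts were measured on bulk RNA, in which the share of cells that express a gene and its level per cell cannot be told apart.

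The table holds only genes that the study had called as changed between these same groups, at more than 2-fold. Presence in it was therefore decided by the contrast described here, and no fold change below is independent evidence that a gene differs. LATS1 and LATS2 themselves were not analysed here, so the knockout could not be checked on their counts. KRT19, 1 of 6 epithelial markers looked for, is in the table, with 30967, 32635 and 26496 counts in parental and 16722, 5505 and 9287 in LATS1/2-KO cells. The other 5 epithelial markers, like 15 markers of fibroblasts, endothelial cells and leukocytes, were not analysed here.

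In the Hippo pathway the kinases LATS1 and LATS2 phosphorylate the co-activators YAP and TAZ and so keep them out of the nucleus, where they would act with TEAD factors on target genes. Cell junctions and the apical polarity complexes feed into this cascade. AJUBA is a LIM-domain protein of adherens junctions that binds LATS kinases and restrains them, and FRMD6, also known as willin, is a FERM-domain protein of the apical junction counted among the activators of the cascade. MPP5, now named PALS1, is the scaffold of the Crumbs polarity complex, which binds PATJ and sets the place of tight junctions. The members thus act on LATS in different directions, and the comparison asks what their transcripts do when LATS1 and LATS2 are both lost.

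All 3 genes lie on the long arm of chromosome 14, a feature that the choice by symbol did not use. In GENCODE version 29 on the GRCh38 build, AJUBA (ENSG00000129474.16_7 in the deposited table) spans chr14:22971174-22982642 on the minus strand, FRMD6 (ENSG00000139926.16_9) chr14:51489100-51730727 on the plus strand and MPP5 (ENSG00000072415.9_8) chr14:67241109-67335819 on the plus strand. Their exons cover 5979, 9416 and 8743 bases. The use of strand in counting is not given in the sources used here, and each gene overlaps others that are not in the table. FRMD6 overlaps the noncoding transcripts FRMD6-AS1 and FRMD6-AS2 on the opposite strand, MPP5 overlaps ATP6V1D, a subunit of the vacuolar proton pump, on the opposite strand, and AJUBA overlaps the gene model AL132780.3 on its own strand. These overlaps are of whole gene spans, and shared exons were not looked for. Where a partner's reads fall in exons of a member, they may not be told apart from reads of that member.

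Because TEAD factors bind the letters GGAATG, the RefSeq promoter windows (GRCh38.p14, 250 bases before to 50 after a start) were searched for them on both strands. Of 35116 windows for all genes, 14% hold at least 1 match. RefSeq gives 2 windows for AJUBA, 1 for FRMD6 and 1 for MPP5 under its name PALS1. A match was found in 1 of these 4, that of the internal AJUBA start, 59 bases before that start, and it is shown with 12 bases on either side and the match in capitals. For comparison, the bases before the outer AJUBA start and before FRMD6 are shown up to the first annotated exon, with no match and hence no capitals.
AJUBA internal start, chr14:22976884-22976913, minus strand: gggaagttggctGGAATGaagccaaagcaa
AJUBA outer start, chr14:22982643-22982801, minus strand: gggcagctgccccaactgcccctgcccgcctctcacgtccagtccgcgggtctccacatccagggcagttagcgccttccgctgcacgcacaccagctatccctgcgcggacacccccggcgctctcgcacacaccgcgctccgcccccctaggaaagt
FRMD6, chr14:51488878-51489099, plus strand: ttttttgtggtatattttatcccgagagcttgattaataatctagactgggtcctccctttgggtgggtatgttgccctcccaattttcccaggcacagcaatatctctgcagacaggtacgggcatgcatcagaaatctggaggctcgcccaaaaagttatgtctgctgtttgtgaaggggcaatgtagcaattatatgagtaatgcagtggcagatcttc
The window of the internal AJUBA start begins within an annotated exon or UTR. The window of MPP5 lies within its first annotated exon and is not shown. These windows cover single starts only, and which start the KLE cells use was not measured.

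Parental replicates 1, 2 and 3 held 4064052, 3252765 and 3008692 counts over the 414 listed genes. The LATS1/2-KO libraries, numbered 5, 6 and 7 as their columns are, held 1862422, 613161 and 1180727. LATS1/2-KO library 6 was the shallowest, but the lowest count of each member was in parental replicate 3. To compare libraries, each count was divided by a library scale, and the result is called the scaled count. The scale between the groups was set by the table itself. Over 199 genes with at least 50 counts in parental replicates 2 and 3 and in each LATS1/2-KO library, the log2 ratios of the groups left a gap of 2.00 between the 108 lowest and the 91 highest, as a list of genes changed more than 2-fold must, and the centre of this gap was taken as no change. On this scale the epithelial marker KRT19 was at 21080 to 26635 scaled counts in parental and at 11079 to 12529 in LATS1/2-KO cells. The groups did not overlap, and the log2 fold change of KRT19 was -1.09 (standard error 0.14). It was not called by edgeR (adjusted p = 0.292), but it was called by DESeq2 (adjusted p = 2.9e-08). Adjusted over the list alone, edgeR called it too (adjusted p = 0.00205). With column sums as scale its log2 fold change was -0.04. The part of KRT19 in the results was not tested.

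The counts of AJUBA were 211, 342 and 169 for parental replicates 1, 2 and 3, against 632, 245 and 492 for LATS1/2-KO libraries 5, 6 and 7. On the common scale these were 144, 276 and 170 scaled counts in parental cells against 474, 493 and 592 in LATS1/2-KO cells. Every LATS1/2-KO library lay above every parental one, with the highest parental value in replicate 2. The mean was 196 ± 69.8 in parental and 519 ± 63.4 in LATS1/2-KO cells (SD, n = 3 libraries each; exact permutation test, two-sided, p = 0.1, the smallest that 3 libraries against 3 allow). The log2 fold change was 1.40 (standard error 0.30, 95% interval 0.65 to 2.15), or 2.64-fold. The coefficient of variation between parental libraries was 35.6%, against 6.51% from counting alone.

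For MPP5 the parental counts were 165, 133 and 123, and those of the LATS1/2-KO libraries 302, 158 and 272. Scaled, the parental values of 112, 107 and 124 lay close together, and the LATS1/2-KO values were 226, 318 and 327. The groups did not overlap, and the parental coefficient of variation of 7.38% was no larger than the 8.55% that counting alone gives. The mean was 114 ± 8.44 against 290.5 ± 55.8 scaled counts (SD, n = 3 each; exact permutation test, two-sided, p = 0.1). The log2 fold change was 1.34 (standard error 0.24, 95% interval 0.74 to 1.94), or 2.54-fold.

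FRMD6 was the member whose values depended most on parental replicate 1. Its count was 227 for parental replicate 1 but only 84 for replicate 2 and 53 for replicate 3, while LATS1/2-KO cells gave 194, 107 and 201. The scaled counts were 155, 67.7 and 53.3 in parental cells and 145, 215 and 242 in LATS1/2-KO cells, so that parental replicate 1 lay above LATS1/2-KO library 5 and the groups overlapped. The lowest count, 53, has an exact 95% Poisson interval of 39.7 to 69.3, which covers counting error only and is far below the count of replicate 1. With all 6 libraries the mean was 91.8 ± 54.8 against 201 ± 49.8 scaled counts (SD, n = 3 each; exact permutation test, two-sided, p = 0.2), and the log2 fold change was 1.13 (standard error 0.49, 95% interval -0.10 to 2.36). Without parental replicate 1 the parental mean was 60.5 ± 10.2 (SD, n = 2), the groups no longer overlapped (exact permutation test, two-sided, p = 0.1, the smallest that 2 against 3 allow), and the log2 fold change was 1.73 (standard error 0.34, 95% interval 0.90 to 2.56), or 3.31-fold. In that setting 97.6% of all listed genes had an unadjusted p under 0.05 from edgeR. FRMD6 was listed for its change on this contrast, so the larger value is not independent evidence that it differs.

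Leaving out parental replicate 1 moved the members differently. In scaled counts AJUBA was lowest in that replicate, at 0.645 times the mean of replicates 2 and 3. Without the replicate the log2 fold change of AJUBA was 1.22 (standard error 0.25). MPP5 in replicate 1 was at 0.973 times that mean, and its log2 fold change without the replicate was 1.33 (standard error 0.26). FRMD6 was at 2.56 times that mean. Over 314 listed genes with at least 50 counts on average, the log2 ratio of replicate 1 to the mean of the others had quartiles of -0.27 and 1.28 around a median of 0.068. AJUBA, at -0.63, was above 8.28% of these genes, MPP5, at -0.04, above 41.7% and FRMD6, at 1.35, above 76.4%, so that AJUBA and FRMD6 lay outside the quartiles on opposite sides. AMOTL1, an angiomotin family protein of tight junctions, had nearly the same ratio (1.31). In scaled counts LATS1/2-KO library 5 was the lowest of its group for all 3 members. What sets parental replicate 1 apart was not tested.

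The groups did not overlap, with the LATS1/2-KO libraries higher, in 2 of the 3 members with all 6 libraries and in 3 without parental replicate 1, against 35.7% and 51.0% of all listed genes. The background is this high because the list was chosen on this contrast, and nothing is read from the members' share. The quasi-likelihood test of edgeR was adjusted after Benjamini and Hochberg for the 58780 genes of the annotation, with each unlisted gene entered as not significant. At an adjusted p under 0.05 and more than 2-fold change, 0 of the 3 members and 0.0% of the listed genes were called with all 6 libraries, the adjusted p from edgeR being 1 for AJUBA, 1 for FRMD6 and 0.764 for MPP5. The unadjusted p was under 0.05 for 2 members, AJUBA and MPP5, and for 310 listed genes (74.9%), but not for FRMD6, whose unadjusted p was under 0.05 with the scales of TMM, median of ratios and column sums. With column sums, the scale that moved the members most with all 6 libraries, the fold changes were 5.42 for AJUBA, 4.51 for FRMD6 and 5.30 for MPP5. The log2 fold change was above 0 in all 3 members, and in 48.1% of the listed genes with all 6 libraries and 54.1% without parental replicate 1. DESeq2 with the same scales and adjustment called 46.4% of the listed genes, among them AJUBA (adjusted p = 0.0325 from DESeq2) and MPP5 (adjusted p = 0.00494 from DESeq2) but not FRMD6 (adjusted p = 1 from DESeq2). Adjusted over the list alone, edgeR called AJUBA and MPP5 like 70.3% of the listed genes.

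Without parental replicate 1, edgeR called 10.4% of the listed genes and again none of the members, whose adjusted p-values were 0.668 for AJUBA, 0.567 for FRMD6 and 0.583 for MPP5 (edgeR, Benjamini-Hochberg), all 3 with an unadjusted p under 0.05 like 97.6% of the listed genes. DESeq2 then called 83.6% of the listed genes and all 3 members, with adjusted p-values of 0.00299, 0.00063 and 0.00116 in the same order. Adjusted over the list alone, edgeR then called all 3, like 97.1% of the listed genes. Over all 19 alternatives tried, adjusted p-values ranged from 0.00299 to 1 for AJUBA, from 0.00063 to 1 for FRMD6 and from 0.00116 to 1 for MPP5, while the log2 fold change stayed above 0 in each. Some alternatives change only the adjustment of p and leave the log2 fold change as it was. The genes were listed for a change of more than 2-fold, so the constant sign is not independent evidence.

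The level of the members was compared per kilobase of exon. In parental cells AJUBA had a mean of 32.8 scaled counts per kb, MPP5 13.1 and FRMD6 9.75, and in LATS1/2-KO cells the means were 86.9, 33.2 and 21.3 in the same order. AJUBA was above the other members in every library. The parental ranges of MPP5 (12.3 to 14.1) and FRMD6 (5.66 to 16.4) overlapped, and in LATS1/2-KO cells they came next to each other, with 25.9 to 37.4 for MPP5 and 15.4 to 25.7 for FRMD6.

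Ratios of counts within a library need no scale between libraries. The ratio of FRMD6 to AJUBA was 1.08, 0.246 and 0.314 for parental replicates 1 to 3, against 0.307, 0.437 and 0.409 for LATS1/2-KO cells. Parental replicate 1, with its high FRMD6 count, was the only library in which FRMD6 had more counts than AJUBA. For MPP5 to AJUBA the ratio was 0.782, 0.389 and 0.728 against 0.478, 0.645 and 0.553, and for FRMD6 to MPP5 it was 1.38, 0.632 and 0.431 against 0.642, 0.677 and 0.739. With all 6 libraries none of the 3 pairs differed between the groups by more than the spread of the libraries (exact permutation tests, two-sided, p = 0.9, 0.8 and 1, each p = 1 after Benjamini-Hochberg adjustment over 3 pairs). The differences of the mean log2 ratio, LATS1/2-KO minus parental, were -0.20, -0.13 and -0.07 with all 6 libraries, and all 3 changed sign without parental replicate 1, to 0.45, 0.06 and 0.39. Without that replicate the exact permutation tests (two-sided) gave p = 0.3 for FRMD6 to AJUBA, 0.9 for MPP5 to AJUBA and 0.1 for FRMD6 to MPP5, or 0.45, 0.9 and 0.3 after adjustment over 3 pairs. The ratio of FRMD6 to MPP5 was then higher in each LATS1/2-KO library than in parental replicates 2 and 3. The parental SDs of the log2 ratios were 0.55 to 1.14 with all 6 libraries and 0.25 to 0.64 without parental replicate 1, and no exact p below 0.1 can be reached with either number of libraries.

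Other genes of Hippo signaling were taken from a list of 146 symbols, older names included. The list was written with earlier results of these data known, so no enrichment is read from the shares below. Besides the members, 23 genes of the list are in the table, all chosen for it by the study on this contrast. With all 6 libraries 21 of them had a log2 fold change above 0, with RASSF4 and GLUL below 0, and 0 were called by edgeR. At an unadjusted p under 0.05 there were 19, against 74.9% of the listed genes, and DESeq2 called 15 as higher, against 19.3%. Without parental replicate 1 all 23 were above 0, and edgeR called 9 as higher and 0 as lower, where 5.8% of all listed genes were called as higher. DESeq2 called 21 as higher in that setting, against 46.9% of the listed genes. Their median log2 fold change was 1.75 with all libraries and 2.18 without parental replicate 1, against -0.35 and 1.17 over all listed genes. WNT5B was below 0 in 4 of the fits, namely without parental replicate 2, without parental replicate 3, without LATS1/2-KO library 6 and with the half-sample mode as scale.

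Among junction and polarity proteins, 2 more genes are in the table, both angiomotin-like proteins, which bind YAP and hold it at junctions. AMOTL2 had 273, 177 and 134 counts in parental and 468, 259 and 291 in LATS1/2-KO libraries. The log2 fold change of AMOTL2 was 1.40 (standard error 0.27), or 1.55 (standard error 0.25) without parental replicate 1. AMOTL1 had 162, 60 and 40 counts against 168, 62 and 145, with values of 1.09 (standard error 0.48) and 1.68 (standard error 0.34). The value of AMOTL1 thus moved by about as much as that of FRMD6 when parental replicate 1 was left out, but its groups did not overlap with all 6 libraries either. Besides the members, none of the symbols looked up as LIM-domain relatives of AJUBA (LIMD1 and WTIP), as FERM-domain or WW-domain regulators (such as NF2 and WWC1) or as proteins of the Crumbs and Par complexes (such as PATJ and PARD3) was found in the table, in which 45 rows carry no symbol.

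Of the 28 symbols looked up for the core cascade, only RASSF4, a RAS-association family member, was analysed here, and nothing is read from the others. Its count was 260 for parental replicate 1 but 0 for both other parental libraries, against 7, 6 and 5 for LATS1/2-KO cells, so its direction rests on replicate 1. RUNX3, a transcription factor able to bind TEAD and YAP, had 38, 59 and 42 counts against 242, 86 and 150 (log2 fold change 2.21, standard error 0.34). Among ligands and receptors, FZD2, a Wnt receptor, had 87, 38 and 21 counts against 183, 68 and 65. WNT5B, a noncanonical Wnt ligand, had 108, 4 and 0 against 17, 23 and 17. ITGB2, an integrin chain of leukocytes, was at 0 in every parental library and at 33, 19 and 5 counts in LATS1/2-KO cells.

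YAP/TEAD targets made up 16 of the 23 other genes. The 9 called without parental replicate 1 by edgeR all belong to them, namely CCN1, ANKRD1, CPA4, UCA1, THBS1, DKK1, SNAPC1, BMP4 and GLUL. Their log2 fold changes in that fit ran from 1.53 for GLUL to 6.21 for UCA1, and in the same fit AJUBA (1.22) and MPP5 (1.33) lay below this range and FRMD6 (1.73) near its lower end. CCN1, a secreted matrix protein and a standard readout of YAP, had 585, 603 and 439 counts against 2227, 873 and 1432 (log2 fold change 1.89, standard error 0.11 without parental replicate 1). Those not called had values from 1.05 to 4.83 in the same fit, among them AXL (1.05), F3 (1.17), ASAP1 (1.25), CRIM1 (1.64), EDN1 (2.84) and TGFB2 (4.83).

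For each member, the listed genes with the most similar profile were found by the root mean square difference of centred log2 scaled counts over the 6 libraries, among 313 other genes with at least 50 counts on average. Nearest to AJUBA were TINAGL1 (0.116), IL7R (0.204) and ZBTB20 (0.207), against a median of 1.35 over these genes. Nearest to FRMD6 were RPL22L1 (0.0837), AZIN1 (0.131) and FIGN (0.156), and nearest to MPP5 were PMAIP1 (0.147), PALM2AKAP2 (0.161) and DMKN (0.198). None of these 9 genes is a member or one of the listed genes placed on chromosome 14. MPP5 stood at rank 27 for AJUBA and rank 41 for FRMD6, and FRMD6 stood at rank 75 for AJUBA. Many listed genes therefore shared a member's profile more closely than the other members did.

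Along chromosome 14, 11 genes are in the table, 1.79% of its 613 protein-coding genes, against 1.80% of protein-coding genes in the whole annotation. From AJUBA to MPP5, in order from the centromere, all 7 listed genes had a log2 fold change above 0, namely AJUBA, AL136295.1, FRMD6, BMP4, PRKCH, SNAPC1 and MPP5. Beyond MPP5 all 4, PLEK2, STON2, IFI27L2 and CRIP1, were below 0. Over all other chromosomes 47.1% of 399 listed genes were above 0, and 53.4% without parental replicate 1. In 18 of 19 alternatives, some of which change only the adjustment of p, every fitted gene of both stretches kept its sign. The exception was AL136295.1, which had 844 counts in LATS1/2-KO library 5 and 0 in the other 5 libraries, so it rests on that library alone. The split at MPP5 was chosen after these values had been seen and is a description with no test.

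The listed neighbours of MPP5 on its 2 sides differed in sign. SNAPC1, a subunit of the promoter-binding complex that activates small nuclear RNA genes, ends 5444680 bases before MPP5 and had 551, 648 and 442 counts in parental against 3637, 1363 and 2542 in LATS1/2-KO libraries (log2 fold change 2.67, standard error 0.17). PLEK2, an actin-binding protein, starts 51163 bases after MPP5 and had 563, 637 and 536 counts against 232, 81 and 128. Its log2 fold change was -1.55 (standard error 0.21), and the LATS1/2-KO values, 154 to 174 scaled counts, were all below the parental ones. Next to FRMD6, 2219008 bases away, lies BMP4, a secreted growth factor, with 123, 143 and 149 counts against 1118, 403 and 742 (log2 fold change 2.87, standard error 0.26). PRKCH, a protein kinase C, had 0, 7 and 9 counts against 48, 27 and 58. Chromosome copy number was not measured.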

How the data were processed

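RNA from 3 parental and 3 LATS1/2-KO KLE libraries was sequenced as paired-end reads. The submitters' processing notes name cutadapt, HISAT2, StringTie and DESeq2 and the hg19 build, without versions. The authors deposited whole-number read counts for the 414 genes they had called, and log2-like normalized values that their header calls TPM. In the deposited log2 values parental replicate 1 equals the mean of replicates 2 and 3 in 414 of 414 genes (within 0.0001), so these values were used for this check only. The columns of the authors' own comparison (fold change, p and adjusted p), also in the table, were not used, nor were 3 normalized columns of LATS1/2-KO cells that match no single sample. LATS1/2-KO count columns match their group only.

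The members and lists were chosen with earlier results of these data known. Identifiers without version were joined to GENCODE version 29 (410 of 414 found), which is on GRCh38 and not on the authors' build. All positions are GRCh38. Within a group a library's scale was the median ratio to the geometric mean of the group, taken over genes that had 50 counts or more in all its libraries. Between groups the widest gap in log2 ratios, with at least 20% of genes on each side, was centred on 0. Counts were fitted with edgeR 4.0.16 (estimateDisp, glmQLFit, glmQLFTest, no covariates) in R 4.3.3, and standard errors are the absolute log2 fold change over the square root of F. Every pair of libraries within a group differed by more than counting noise (chi-square per degree of freedom at least 43.8). The fit was tested on simulated data, which do not measure its power with these libraries.

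Alternatives were leaving out each library, TMM, DESeq2 1.42.0 median-of-ratios factors or column sums as scales, the half-sample mode within groups, DESeq2 as the test, at least 10 counts in every library, and adjustment over 19969 protein-coding genes or over the list alone. The last of these without parental replicate 1 was added after the data had been seen. Named genes were the members, every gene of the pathway list in the table except 1 that enters the counts and is not reported here, the 3 most similar profiles for each member, and the nearest listed genes along the chromosome. STON2, IFI27L2, CRIP1, PRKCH and AL136295.1 complete the chromosome and were in part named after their values were seen.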

Additional observations from a re-analysis of the deposited data

How the results depend on the processing

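No alternative turned the direction of AJUBA, FRMD6 or MPP5, but the genes were listed for their change on this contrast. As each library was left out, log2 fold changes ran from 1.22 to 1.70 for AJUBA, from 0.78 to 1.73 for FRMD6 and from 1.21 to 1.48 for MPP5, and 0 to 24 genes were called higher and 0 to 19 lower, all calls being made without parental replicate 1. Calls were gained with DESeq2 (AJUBA 1.40, MPP5 1.34), with adjustment over the list alone (1.40 and 1.34), without parental replicate 1 in DESeq2 (AJUBA 1.22, FRMD6 1.72, MPP5 1.33), and without parental replicate 1 with adjustment over the list alone (1.22, 1.73 and 1.33), but the list was chosen on these libraries, so adjustment over it is not independent evidence. Against 0 genes called higher and 0 lower, there were 13 higher with TMM, 19 higher with column sums, 1 higher and 2 lower with the half-sample mode, 80 and 112 with DESeq2, 12 and 4 with at least 10 counts in every library, 18 and 14 with adjustment over protein-coding genes, and 119 and 172 over the list alone. Without parental replicate 1 there were 24 and 19 in the same fit as the main one, 36 and 7 with median-of-ratios factors, 17 and 2 with TMM, 194 and 152 with DESeq2, 46 and 54 over protein-coding genes, and 212 and 190 over the list alone. Scales from the listed genes moved the median log2 fold change of all listed genes from -0.35 to 0.38 (TMM), 0.31 (median of ratios) or 0.66 (column sums), and moved AJUBA to 2.07, 1.89 and 2.44, FRMD6 to 1.81, 1.70 and 2.17 and MPP5 to 2.00, 1.87 and 2.41 in the same order. The within-library log2 ratios ran from -0.61 to 0.45 (FRMD6 to AJUBA), from -0.44 to 0.059 (MPP5 to AJUBA) and from -0.44 to 0.39 (FRMD6 to MPP5) as each library was left out. They turned to 0.45, 0.059 and 0.39 without parental replicate 1, and MPP5 to AJUBA also to 0.0076 without parental replicate 3. The cause was not tested. No paired analysis was possible because the LATS1/2-KO columns carry numbers that match no replicate label.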
